A study of Homo sapiens with 24 samples.

Results

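The lactate-making and lactate-exporting step of glycolysis was followed through 5 genes, chosen by name: the lactate dehydrogenases LDHA and LDHB, the monocarboxylate transporters SLC16A1 (MCT1) and SLC16A3 (MCT4), and BSG (basigin, CD147), the membrane glycoprotein that these transporters need as a chaperone. All 5 were found among the 25168 genes of the count tables, and all 5 passed the filter on low counts in both cell lines. The libraries are mRNA sequencing libraries of BXPC3 and PANC1, established human pancreatic cancer cell lines grown in low-glucose medium with serum and treated for 24 h. Each line had 4 groups of 3 libraries, which makes 24 libraries in 8 groups: vehicle, SR4 at 5 uM, lonidamine at 300 uM, and SR4 with lonidamine, called the combination here. The labels give no doses of their own for the combination group, and no further description of SR4. No sample carries a gene edit, and each line stands for 1 tumour. Nothing in the labels says whether the 3 libraries of a group came from separate cultures, so p-values measure the spread between these libraries, which may be technical.

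Lactate dehydrogenase is a tetramer of A and B subunits that interconverts pyruvate and lactate while it recycles NADH and NAD. Tetramers rich in the A subunit are known for making lactate in glycolytic cells, and those rich in the B subunit for using it. Monocarboxylate transporters carry lactate together with a proton across the plasma membrane, MCT1 with high affinity and in either direction and MCT4 with low affinity and mainly outwards in highly glycolytic cells. LDHA and SLC16A3 are known targets of the hypoxia-inducible factors. Lonidamine is known to inhibit monocarboxylate transporters and the mitochondrial pyruvate carrier. Transcript levels alone say nothing of enzyme activity or of lactate flux.

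Library totals ran from 9142433 to 11470973 counts in BXPC3 and from 8873041 to 11822495 in PANC1, and the members had between 686 and 15275 counts in any library. No library pair of a group agreed within sampling noise. SMAD4, which BXPC3 is known to lack, had 0 counts in every BXPC3 library and 51.4 CPM (counts relative to the library total) in PANC1 vehicle. The ductal epithelial markers KRT19, KRT7, EPCAM and CDH1 were all detected in both lines, but KRT7 stood at only 7.56 CPM and CDH1 at 17.5 in PANC1 vehicle, against 1856 and 527 in BXPC3 vehicle. KRT19 stood at 1260 CPM in BXPC3 vehicle and 500 to 717 under treatment, and at 701 in PANC1 vehicle and 130 to 290 under treatment. The other markers did not all fall in BXPC3. With SR4, lonidamine and the combination KRT7 stood there at 2377, 1148 and 814 CPM and CDH1 at 435, 562 and 449. EPCAM stood there at 213 with vehicle and at 231, 228 and 290 in that order. With the PANC1 combination KRT7 read 2.35, CDH1 3.97 and EPCAM 19.4, the last from 29.1 with vehicle. VIM, a mesenchymal marker, went from 64.7 to 133 with the combination in BXPC3, and from 4197 to 2788 in PANC1 (4610 with SR4). The endocrine markers INS and GCG were at 0 in all libraries. The summed level of 4 fibroblast markers was 14.0 CPM in BXPC3 vehicle and 14.3 to 22.8 under treatment, and it was 85.6 in PANC1 vehicle, nearly all of it COL1A1, against 14.0 to 33.4 under treatment. The summed levels of the acinar and immune marker lists were at most 4.07 CPM in any group, and that of the endothelial list at most 9.98. The part of these shifts in the results for the members was not tested.

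Levels are given as CPM after scaling by the trimmed mean of M-values (TMM) within each line, with the libraries of a group in the order of replicates 1, 2 and 3. Changes are log2 fold changes with their standard error (SE) from edgeR's quasi-likelihood test on the counts, and a gene was called changed at a Benjamini-Hochberg adjusted p under 0.05 over all genes tested. Between 41.8% and 84.3% of all genes passed this threshold, depending on the comparison, so a call by itself sets no gene apart. For changes against vehicle, the share of genes that moved at least as far in the same direction is given as well.

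**Figure D1:**
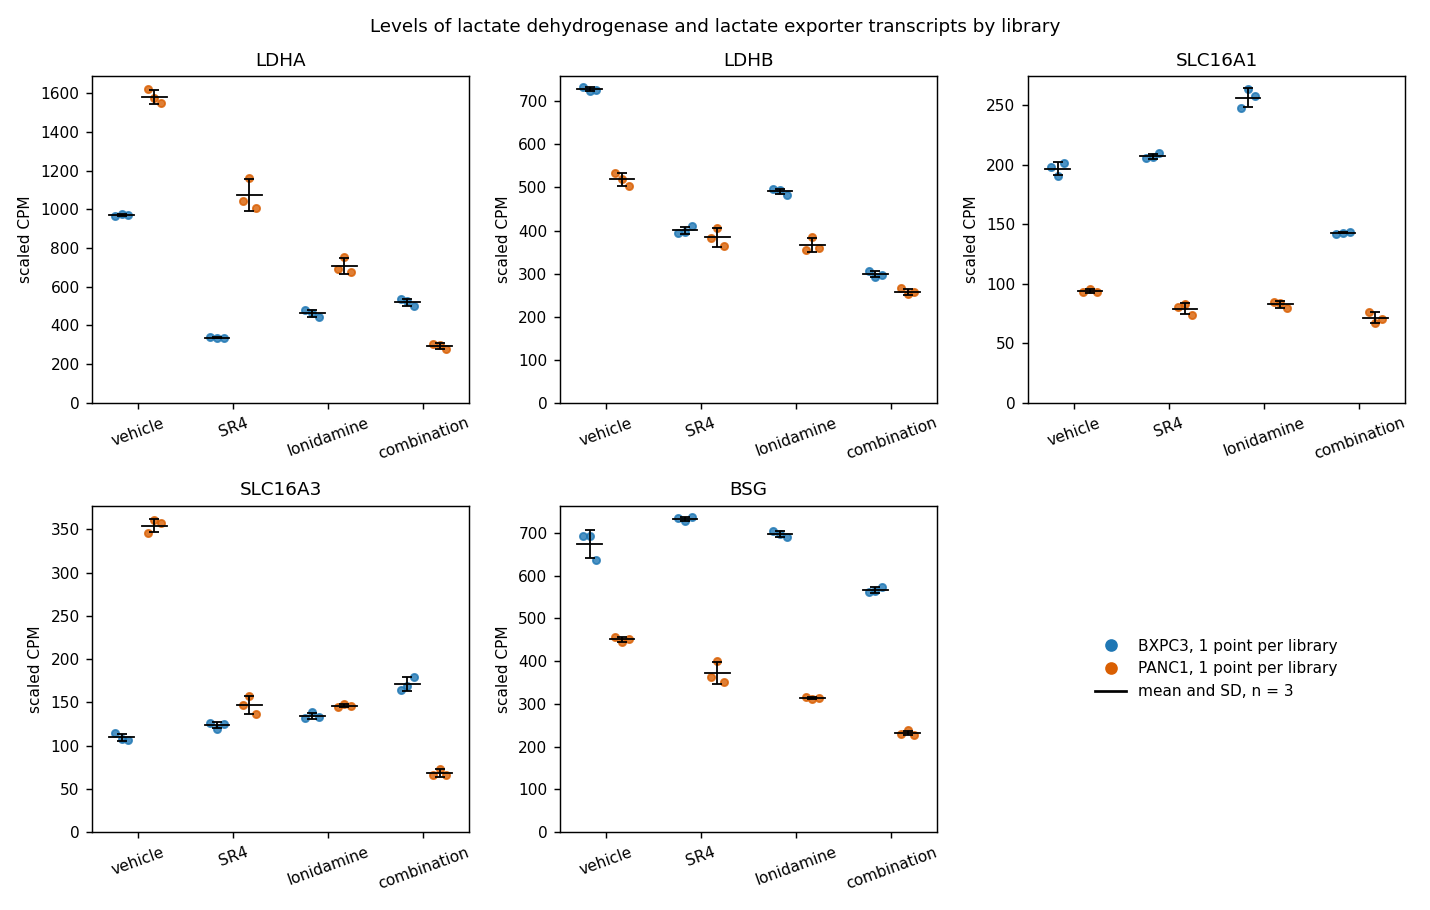
Scaled CPM (vertical axes, from 0) of the 5 genes in each of the 24 libraries, by treatment (horizontal axes). Points are libraries and the black lines are the mean and SD of 3. LDHA falls from 1581 to 293 in PANC1 between vehicle and combination, and SLC16A3 rises in BXPC3 while it falls in PANC1.

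In untreated cells, PANC1 held more LDHA and SLC16A3 transcript and less LDHB, SLC16A1 and BSG than BXPC3. The difference was widest for the transporters. SLC16A3 stood at 346, 360 and 358 CPM in PANC1 vehicle and at 114, 108 and 106 in BXPC3 vehicle, so all PANC1 libraries lay above all BXPC3 libraries, 3.01-fold in the joint fit (log2 difference 1.59, SE 0.0463, edgeR adjusted p = 1.89e-28). SLC16A1 went the other way, with 92.6, 95.5 and 93.2 CPM in PANC1 against 198, 190 and 201 in BXPC3 (log2 difference -1.17, SE 0.0454, edgeR adjusted p = 2.69e-24). MCT1 transcript was thus higher in BXPC3 and MCT4 transcript in PANC1.

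The dehydrogenases differed less between the untreated lines. LDHA read 1620, 1574 and 1548 CPM in PANC1 and 967, 975 and 973 in BXPC3, a log2 difference of 0.60 (SE 0.0443). LDHB read 534, 519 and 504 in PANC1 and 734, 725 and 727 in BXPC3, a log2 difference of -0.59 (SE 0.0387). BSG, which serves both transporters, was at 456, 444 and 452 in PANC1 and at 693, 692 and 636 in BXPC3, a log2 difference of -0.68 (SE 0.0385). All 5 genes passed the threshold (edgeR adjusted p from 1.89e-28 to 2.34e-15), and the libraries of the lines did not overlap for any of them. That count stands against 84.3% of the 13930 genes tested in both lines, and a difference as high as that of SLC16A3 was reached by 12.6% of them.

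The genes lie at single loci on GRCh38, as the count tables place them. LDHA spans chr11:18394388-18408425 on the plus strand and LDHB chr12:21635342-21757857 on the minus strand. SLC16A1 spans chr1:112911847-112957013 on the minus strand, SLC16A3 chr17:82228397-82261129 on the plus strand and BSG chr19:571277-583493 on the plus strand. The antisense gene SLC16A1-AS1 overlaps SLC16A1 and had 42 to 183 counts per library. CSNK1D lies against SLC16A3 on the opposite strand and had 1422 to 1745 counts per BXPC3 library and 2070 to 2907 per PANC1 library, where SLC16A3 itself had 1162 to 1601 and 703 to 3258. Whether the counting used strand is not given, so reads from the shared stretches cannot be assigned between these partners. LDHA and LDHB are paralogs with processed copies elsewhere in the genome, and reads that fit more than 1 copy could have been split or dropped.

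Promoters are shown because LDHA and SLC16A3 are textbook targets of hypoxia-inducible factors, whose core site is ACGTG or GCGTG. All 5 members fell in PANC1 under each treatment, and a link between these sites and the falls was not tested. The RefSeq promoter table (GRCh38.p14) matched 4 of the 5 members, not SLC16A1, with 2 windows for LDHA, 1 for LDHB, 5 for SLC16A3 and 2 for BSG. The 250 bases before each start were searched on both strands for these core sites and for the E-box CACGTG, whose last 5 letters are the first of them. LDHA is the gene with paired E-boxes, at positions -185 and -87 from its upstream start, and a further ACGTG on the opposite strand begins at -73. The other LDHA window holds only a GCGTG, at -123. SLC16A3 holds ACGTG at -68 and -55 before its second listed start, with no E-box there. GCGTG stands at -216, -89 and -22 before the fourth SLC16A3 start and at -165 before the fifth, and the other SLC16A3 windows hold none of the motifs. BSG holds an E-box at -193 before its second listed start and 4 GCGTG in the same window. The LDHB window holds none of the motifs. The stretches of 30 bases with these sites read as follows, 5′ to 3′ on the plus strand, with ACGTG or CACGTG on either strand in capitals.
LDHA, chr11:18394363-18394392: cttagactcccagcgCACGTGgagcagtct
LDHA, chr11:18394465-18394494: agcccgactcaCACGTGggttcccgCACGT
SLC16A3, chr17:82228967-82228996: ggcggtgACGTGcgcgggggACGTGccgcg
BSG, chr19:572391-572420: gcaacgccgggtCACGTGcgccgccgcccg
Among all 35116 promoter windows of the table, 18.5% hold ACGTG, 32.2% GCGTG and 6.34% CACGTG, and 0.535% hold CACGTG at 2 or more positions. ACGTG begins at 2 or more positions, as in SLC16A3, in 7.52% of windows, where an E-box counts as 2. These shares are per window, not per gene, and a gene with more windows, such as SLC16A3 with 5, has more places for a match. A match describes the letters of the window and shows no binding. In GENCODE 29 each of the LDHA stretches is overlapped by an exon of 1 LDHA transcript, and no exon of the gene overlaps the stretch of SLC16A3 or BSG.

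LDHA, the subunit known for lactate production, fell in both lines under every treatment, but in a different order. In BXPC3 its level was 967, 975 and 973 CPM with vehicle and only 341, 334 and 335 with SR4. Lonidamine left 480, 464 and 445, and the combination 534, 527 and 498. All 9 treated libraries lay below all 3 vehicle libraries, and the lowest level was that under SR4 alone, not under the combination. The log2 changes were -1.53 with SR4 (SE 0.0345, edgeR adjusted p = 3.81e-23), -1.07 with lonidamine (SE 0.0339, edgeR adjusted p = 3.67e-20) and -0.90 with the combination (SE 0.0338, edgeR adjusted p = 6.51e-19). A fall as large as that of LDHA was seen in 3.41% of genes under SR4, in 9.0% under lonidamine and in 17.1% under the combination.

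In PANC1, LDHA fell further with each treatment in the order SR4, lonidamine, combination. It read 1620, 1574 and 1548 CPM with vehicle, 1045, 1165 and 1007 with SR4, 690, 752 and 677 with lonidamine and 303, 301 and 276 with the combination. The 4 groups did not overlap. The log2 changes were -0.56 (SE 0.0453, edgeR adjusted p = 1.04e-11), -1.16 (SE 0.0459, edgeR adjusted p = 1.28e-18) and -2.43 (SE 0.0485, edgeR adjusted p = 9.44e-26), the last a 5.39-fold fall. Falls of these sizes were reached by 20.5%, 6.31% and 2.80% of genes.

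LDHB, the subunit known for lactate use, also fell in every treated group of both lines. In BXPC3 it read 734, 725 and 727 CPM with vehicle, 394, 397 and 409 with SR4, 496, 493 and 483 with lonidamine, and 306, 293 and 296 with the combination. Here the combination was the lowest group, unlike for LDHA. The log2 changes were -0.86 (SE 0.0317) with SR4, -0.57 (SE 0.0314) with lonidamine and -1.29 (SE 0.0324) with the combination, with edgeR adjusted p of 7.67e-15 or smaller. Of all genes 8.69%, 17.3% and 10.95% fell as far.

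In PANC1, LDHB stood at 534, 519 and 504 CPM with vehicle, 382, 407 and 363 with SR4, 355, 385 and 360 with lonidamine, and 265, 252 and 257 with the combination. The SR4 and lonidamine libraries overlapped, and the others did not. The log2 changes were -0.43 (SE 0.0412) with SR4, -0.50 (SE 0.0410) with lonidamine and -1.01 (SE 0.0419) with the combination, with edgeR adjusted p of 2.74e-10 or smaller. Falls as large were seen in 25.95%, 19.1% and 16.4% of genes.

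SLC16A3, which encodes the lactate exporter MCT4, moved in opposite directions in the lines. In BXPC3 it read 114, 108 and 106 CPM with vehicle, 126, 119 and 125 with SR4, 132, 139 and 133 with lonidamine, and 164, 169 and 180 with the combination. The 4 groups were ordered without overlap. The rises were 0.17 on the log2 scale with SR4 (SE 0.0460, edgeR adjusted p = 0.00184), 0.30 with lonidamine (SE 0.0459, edgeR adjusted p = 2.79e-06) and 0.64 with the combination (SE 0.0454, edgeR adjusted p = 8.32e-13). Rises of these sizes were common, since 37.6% of genes rose at least as much as SLC16A3 under SR4, 29.7% under lonidamine and 22.5% under the combination.

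In PANC1, where untreated SLC16A3 was 3.01-fold higher, it fell under every treatment. Vehicle libraries held 346, 360 and 358 CPM, SR4 libraries 147, 157 and 137, lonidamine libraries 145, 148 and 146, and combination libraries 66.4, 73.5 and 65.6. The SR4 and lonidamine groups overlapped and lay between the vehicle and the combination. The log2 changes were -1.27 (SE 0.0450, edgeR adjusted p = 1.10e-19), -1.28 (SE 0.0443, edgeR adjusted p = 6.37e-20) and -2.37 (SE 0.0485, edgeR adjusted p = 1.59e-25). Of all genes 4.83%, 5.31% and 3.04% fell as far. CSNK1D on the opposite strand was not separated from these counts, as stated above.

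SLC16A1, which encodes MCT1, had the smallest estimates of the members in PANC1 and changed sign between treatments in BXPC3. In BXPC3 it read 198, 190 and 201 CPM with vehicle, 206, 206 and 210 with SR4, 248, 263 and 257 with lonidamine, and 142, 143 and 143 with the combination. The lonidamine libraries were the highest and the combination libraries the lowest, with no overlap with any other group. The lonidamine rise was 0.38 on the log2 scale (SE 0.0374, edgeR adjusted p = 9.36e-10), and the combination changed it by -0.46 (SE 0.0393, edgeR adjusted p = 3.60e-11). Under SR4 the estimate was 0.08 (SE 0.0377, edgeR adjusted p = 0.0739), which did not pass. It did pass, at 0.09, without BXPC3 vehicle replicate 3 (edgeR adjusted p = 0.0498) and, at 0.10, with all libraries scaled by total counts (edgeR adjusted p = 0.0175). A rise as large as that of SLC16A1 was seen in 24.5% of genes under lonidamine, and a fall as large in 29.8% under the combination.

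In PANC1, SLC16A1 stood at 92.6, 95.5 and 93.2 CPM with vehicle, 80.1, 83.1 and 73.9 with SR4, 84.4, 84.1 and 79.6 with lonidamine, and 76.6, 67.0 and 70.7 with the combination. All treated libraries lay below all vehicle libraries, while the 3 treated groups were not fully separated, the SR4 libraries overlapping both of the others. The log2 changes were -0.25 (SE 0.0544, edgeR adjusted p = 2.17e-04), -0.18 (SE 0.0529, edgeR adjusted p = 0.00341) and -0.39 (SE 0.0542, edgeR adjusted p = 2.15e-07). Falls of these sizes were seen in 34.2% to 36.0% of genes.

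BSG, the chaperone of both transporters, changed little in BXPC3. It read 693, 692 and 636 CPM with vehicle, 734, 728 and 737 with SR4, 704, 696 and 691 with lonidamine, and 561, 564 and 574 with the combination. The lonidamine libraries overlapped the vehicle libraries. The rise with SR4 was 0.12 on the log2 scale (SE 0.0327, edgeR adjusted p = 0.00201), the lonidamine estimate was 0.05 (SE 0.0328, 95% interval -0.02 to 0.12, edgeR adjusted p = 0.189), and the combination changed BSG by -0.25 (SE 0.0331, edgeR adjusted p = 1.31e-07). Without vehicle replicate 3, the lowest vehicle library, the BSG values were 0.0803 with SR4, still called (edgeR adjusted p = 0.0276), and 0.00853 with lonidamine. In BXPC3 41.4% of genes rose as much as BSG with SR4 and 38.3% fell as much with the combination. In PANC1 it fell under every treatment, from 456, 444 and 452 with vehicle to 363, 401 and 352 with SR4, 317, 312 and 314 with lonidamine, and 230, 238 and 227 with the combination. The 4 PANC1 groups did not overlap, and the log2 changes were -0.28 (SE 0.0398), -0.52 (SE 0.0398) and -0.96 (SE 0.0407), with edgeR adjusted p of 5.56e-07 or smaller. In PANC1 33.8%, 18.4% and 17.3% of genes fell at least as far as BSG.

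**Figure D2:**
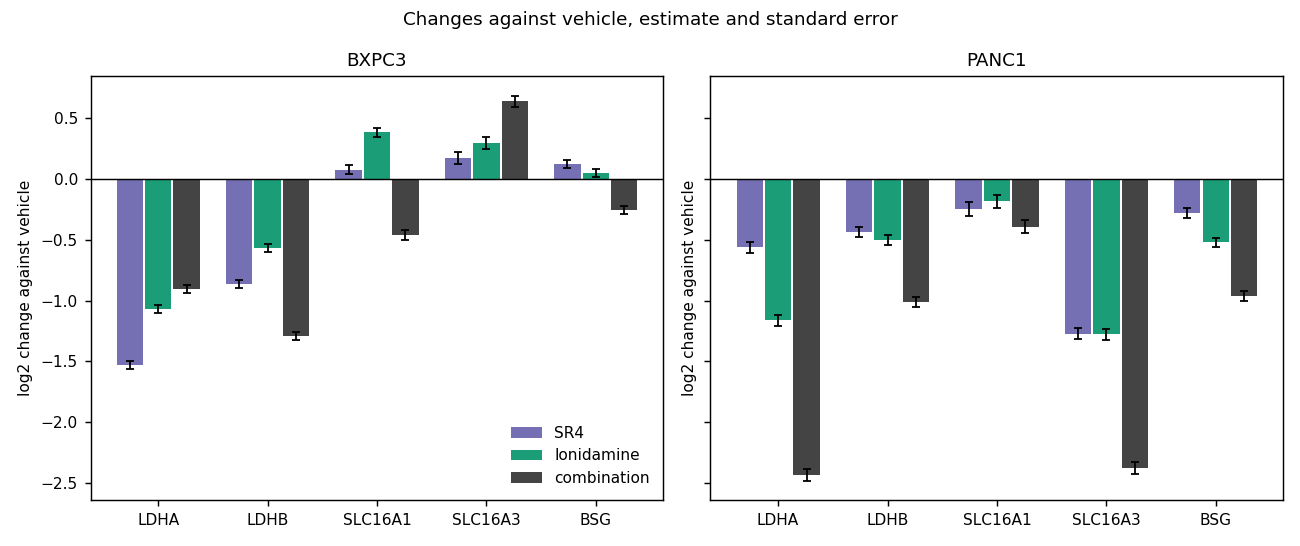
Log2 change against vehicle (vertical axes) of each gene under SR4, lonidamine and the combination, in BXPC3 (left) and PANC1 (right). Bars are edgeR estimates and whiskers their standard error. All PANC1 bars point down, to -2.43 for LDHA, while in BXPC3 SLC16A3 points up to 0.64 and the dehydrogenases point down.

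Counted together, all 5 genes fell in PANC1 under each of the 3 treatments. The share of all PANC1 genes called lower was 36.7% with SR4, 34.2% with lonidamine and 40.9% with the combination, and the shares called higher were 35.0%, 35.0% and 40.1%. The median change of the 5 was -0.43, -0.52 and -1.01 on the log2 scale, against medians of -0.02, 0.01 and -0.02 over the 12514 genes tested. In BXPC3, LDHA and LDHB fell and SLC16A3 and BSG rose with SR4, while LDHA and LDHB fell and SLC16A1 and SLC16A3 rose with lonidamine. Under the combination 4 fell and SLC16A3 alone rose. The background in BXPC3 was 33.9% called lower and 33.4% called higher with SR4, 32.7% and 34.8% with lonidamine, and 39.5% and 39.7% with the combination. With 4, 4 and 5 of 5 members called in BXPC3, the counts were near that background. These comparisons share their vehicle libraries within a line.

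Against SR4 alone, the combination held more LDHA transcript in BXPC3 and less in PANC1. In BXPC3 the combination exceeded SR4 alone by 0.62 for LDHA (SE 0.0347, edgeR adjusted p = 1.88e-14) and by 0.47 for SLC16A3 (SE 0.0451, edgeR adjusted p = 1.27e-09). The other members were lower in the combination than with SR4, by log2 differences of -0.42 for LDHB, -0.54 for SLC16A1 and -0.37 for BSG, and all 5 were called against 60.8% of genes. In PANC1 all 5 were lower with the combination than with SR4, where 66.5% of genes were called. LDHA had the widest difference, -1.87 (SE 0.0480, edgeR adjusted p = 3.03e-22), and only 1.17% of genes were lowered as much. SLC16A3 followed with -1.10 (SE 0.0512), then BSG with -0.68 (SE 0.0409) and LDHB with -0.57 (SE 0.0422). The difference for SLC16A1 was small, -0.14 (SE 0.0551, edgeR adjusted p = 0.0236). It no longer passed without SR4 replicate 1, SR4 replicate 2, combination replicate 2 or combination replicate 3, where it ran from -0.13 to -0.10 (edgeR adjusted p from 0.0679 to 0.163).

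Against lonidamine alone the directions were the same. In BXPC3 the combination stood above lonidamine alone by 0.17 for LDHA (SE 0.0343, edgeR adjusted p = 1.48e-04) and by 0.34 for SLC16A3 (SE 0.0450, edgeR adjusted p = 2.58e-07). It stood below it by log2 differences of -0.72 for LDHB, -0.84 for SLC16A1 and -0.30 for BSG, so all 5 were called, as were 60.8% of genes. In PANC1 all 5 were lower than with lonidamine, where 74.6% of genes were called, with -1.27 for LDHA (SE 0.0476), -1.10 for SLC16A3 (SE 0.0504), -0.51 for LDHB (SE 0.0420), -0.44 for BSG (SE 0.0408) and -0.21 for SLC16A1 (SE 0.0536, edgeR adjusted p = 0.00102).

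The single agents were set against each other at the 1 dose each was given. In BXPC3 LDHA, LDHB and SLC16A1 were lower with SR4 than with lonidamine, by log2 differences of -0.46 (SE 0.0346), -0.29 (SE 0.0319) and -0.31 (SE 0.0374). SLC16A3 differed by -0.12 (SE 0.0456, edgeR adjusted p = 0.0287), a call that ended without SR4 replicate 2 (-0.09, edgeR adjusted p = 0.148) and without lonidamine replicate 2 (-0.09, edgeR adjusted p = 0.155). BSG differed by 0.07 (SE 0.0328, edgeR adjusted p = 0.0730) and did not pass, but it did without BXPC3 vehicle replicate 3 (edgeR adjusted p = 0.0376). The call rate over all BXPC3 genes was 46.7%, against 4 of 5 members. In PANC1 LDHA was higher with SR4 than with lonidamine by 0.60 (SE 0.0457, edgeR adjusted p = 4.56e-12) and BSG by 0.24 (SE 0.0400, edgeR adjusted p = 5.84e-06), while 66.2% of genes were called. The differences for LDHB, SLC16A1 and SLC16A3 were not called, with 95% intervals of -0.02 to 0.15, -0.18 to 0.05 and -0.09 to 0.10. The LDHB difference of 0.07 passed without PANC1 SR4 replicate 3 (0.11, edgeR adjusted p = 0.0338).

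The combination's log2 change was then set against the sum of the changes of both agents alone. Since the labels give no doses for the combination, the difference speaks of joint action only if each agent was present at its single-agent dose. For LDHA in BXPC3 this was 1.69 (SE 0.0484, edgeR adjusted p = 2.43e-20), which 2.38% of genes reached. The sum of the single changes lies far below the change measured for LDHA. SLC16A1 had -0.92 (SE 0.0543, edgeR adjusted p = 1.26e-13), having risen with lonidamine and fallen with the combination, and BSG had -0.42 (SE 0.0466, edgeR adjusted p = 2.69e-08). LDHB had 0.15 (SE 0.0453, edgeR adjusted p = 0.00952) and SLC16A3 0.17 (SE 0.0644, edgeR adjusted p = 0.0304). The SLC16A3 call ended without vehicle replicate 1, SR4 replicate 2, lonidamine replicate 1 or 3, or combination replicate 3 (edgeR adjusted p from 0.0559 to 0.117). All 5 were called in BXPC3, where 49.2% of genes were.

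In PANC1 the same term was -0.71 for LDHA (SE 0.0654, edgeR adjusted p = 3.17e-10), so LDHA was lower with the combination than the sum of both single changes gives, and 15.5% of genes reached this size. BSG had -0.16 (SE 0.0570, edgeR adjusted p = 0.0161), which did not pass without SR4 replicate 2 (-0.09, edgeR adjusted p = 0.107) or without combination replicate 3 (-0.14, edgeR adjusted p = 0.0559). SLC16A3 had 0.18 (SE 0.0679, edgeR adjusted p = 0.0271), and the call ended without vehicle replicate 2 or 3, SR4 replicate 3 or combination replicate 2 (edgeR adjusted p from 0.05001 to 0.125). LDHB (95% interval -0.19 to 0.05) and SLC16A1 (-0.12 to 0.20) were not called. The 3 called members compare with 60.9% of all PANC1 genes.

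The responses were then compared between the lines in the fit of all 24 libraries. The combination lowered SLC16A3 in PANC1 and raised it in BXPC3, a difference of -3.05 on the log2 scale (SE 0.0689, edgeR adjusted p = 7.57e-31) that 2.24% of genes reached. For LDHA the combination's difference was -1.57 (SE 0.0644, edgeR adjusted p = 1.27e-22), for BSG -0.75 (SE 0.0552) and for LDHB 0.24 (SE 0.0563, edgeR adjusted p = 3.09e-04). SLC16A1 fell in both lines, and its difference was 0.03 with a 95% interval of -0.10 to 0.16. This small value ran from 0.0152 to 0.15 when 1 library at a time was left out, and was not called in any of these fits. Of the 5 members 4 were called, against 61.9% of genes.

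With SR4, LDHA was the gene that fell more in BXPC3, by 0.97 (SE 0.0636, edgeR adjusted p = 7.64e-16), and LDHB likewise by 0.43 (SE 0.0554, edgeR adjusted p = 2.67e-08). SLC16A3 differed by -1.45 (SE 0.0668), BSG by -0.40 (SE 0.0544) and SLC16A1 by -0.33 (SE 0.0650), each lower in PANC1. All 5 were called, and so were 51.2% of genes. With lonidamine the dehydrogenases were not called different between lines: the difference was -0.06 for LDHA (95% interval -0.19 to 0.07, edgeR adjusted p = 0.484) and 0.10 for LDHB (-0.01 to 0.21, edgeR adjusted p = 0.154). The transport genes did differ with lonidamine, by -1.54 for SLC16A3 (SE 0.0663), -0.53 for SLC16A1 (SE 0.0638) and -0.54 for BSG (SE 0.0545), with edgeR adjusted p of 6.51e-09 or smaller, where 41.8% of genes were called.

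**Figure D3:**
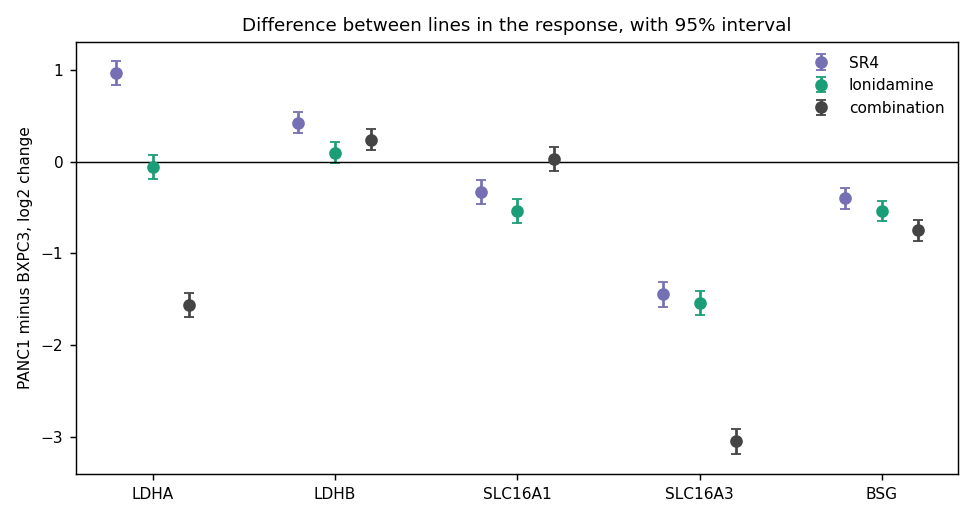
Difference between the lines in the log2 response (PANC1 minus BXPC3, vertical axis) for each gene and treatment. Points are edgeR estimates over 24 libraries and whiskers 95% intervals. SLC16A3 lies at -1.45, -1.54 and -3.05, and LDHA moves from 0.97 with SR4 to -1.57 with the combination.

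Because both members of a pair are read in the same library, their ratio does not depend on scaling between libraries. The ratio of LDHA to LDHB, as counts per kilobase of the length the count tables give, was 0.632, 0.645 and 0.641 in BXPC3 vehicle and 1.45, 1.45 and 1.47 in PANC1 vehicle. In BXPC3 it went down to 0.403 ± 0.0107 (SD, n = 3) with SR4 and 0.452 ± 0.0112 with lonidamine, and up to 0.835 ± 0.0278 with the combination. In PANC1 it went down throughout, to 1.34 ± 0.0323, 0.923 ± 0.0182 and 0.544 ± 0.0290. The lines therefore changed order: with the combination the BXPC3 libraries, at 0.806 to 0.861, lay above the PANC1 libraries, at 0.514 to 0.572. In each of the 6 treated groups the ratios did not overlap those of vehicle, and the exact two-sided permutation test gave p = 0.1, the smallest that 3 against 3 allows.

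The ratio of SLC16A3 to SLC16A1, the low-affinity over the high-affinity exporter, was 0.498, 0.489 and 0.454 in BXPC3 vehicle and 3.21, 3.24 and 3.30 in PANC1 vehicle. In BXPC3 it was 0.513 ± 0.0147 with SR4 and 0.452 ± 0.00781 with lonidamine (SD, n = 3), and these shifts on the log2 scale were 0.09 and -0.09 (exact two-sided permutation p = 0.2 for each). With the combination it was 0.992, 1.02 and 1.08, a log2 shift of 1.10. In PANC1 it dropped to 1.60 ± 0.0242 with SR4, 1.52 ± 0.0531 with lonidamine and 0.829 ± 0.102 with the combination, whose libraries read 0.746, 0.943 and 0.799. These 4 groups, the BXPC3 combination and the 3 of PANC1, did not overlap their vehicle (exact two-sided permutation p = 0.1 for each, the smallest possible). Under the combination the means were 1.03 in BXPC3 and 0.829 in PANC1, on either side of equal levels per kilobase.

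**Figure D4:**
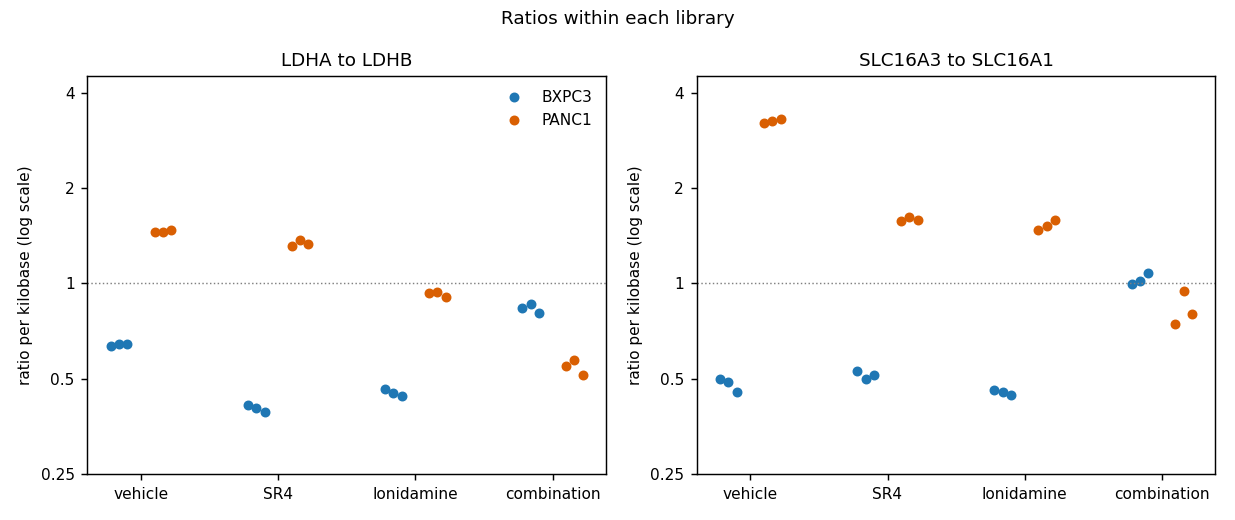
Ratio per kilobase of LDHA to LDHB (left) and of SLC16A3 to SLC16A1 (right) in each library, on a log axis, by treatment; the dotted line marks equal levels. PANC1 lies above BXPC3 with vehicle (1.46 against 0.639, and 3.25 against 0.480) and below it with the combination.

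The absolute size of these ratios depends on the gene length. The count tables give LDHA 6.20 kb and LDHB 2.97 kb, while the longest principal transcripts in GENCODE 29 measure 2.42 and 1.54 kb. With those lengths the LDHA to LDHB ratio was 0.849 in BXPC3 vehicle, 1.11 in the BXPC3 combination, 1.94 in PANC1 vehicle and 0.723 in the PANC1 combination, so the side of 1 on which the BXPC3 combination lay changed, as did that of PANC1 lonidamine (1.23). The SLC16A3 to SLC16A1 ratio changed little, from 3.25 to 3.42 in PANC1 vehicle and from 0.829 to 0.873 in the PANC1 combination. Shifts between treatments are the same under either length.

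Per kilobase of the deposited lengths, the members had the following order in the untreated lines. In BXPC3 vehicle LDHB (245 ± 1.58 CPM per kilobase, SD, n = 3) and BSG (215 ± 10.4) lay above LDHA (157 ± 0.668), and far above SLC16A1 (37.0 ± 1.04) and SLC16A3 (17.8 ± 0.687). In PANC1 vehicle the order was LDHA (255 ± 5.89), LDHB (175 ± 5.04), BSG (144 ± 1.88), SLC16A3 (57.5 ± 1.28) and SLC16A1 (17.7 ± 0.293). With the GENCODE 29 lengths LDHA (402) lay above BSG (341) in BXPC3 vehicle, with LDHB (474) still first, so the order of LDHA and BSG there depends on the length used. The PANC1 order was the same with either length. BSG was more abundant per kilobase than the transporters it serves in both lines, with either length.

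Over the 24 libraries, each line centred on its own mean, log2 levels of LDHA and LDHB had a Pearson correlation of 0.788, SLC16A3 and BSG 0.776, LDHA and BSG 0.733, and LDHA and SLC16A3 0.719. SLC16A1 had 0.241 to LDHA and 0.257 to SLC16A3, but 0.637 to LDHB and 0.626 to BSG, while LDHB and SLC16A3 had 0.391 and LDHB and BSG 0.700. These are descriptions, since the points share treatments and library scaling. Among 7987 well-expressed genes, those most like LDHA were the glycolytic enzyme PGK1 (0.985), the collagen lysyl hydroxylase PLOD2 (0.980) and the glycolytic enzyme GAPDH (0.955). LDHB was most like ATP5B (0.984), a subunit of the mitochondrial ATP synthase, RAN (0.983) and HDAC2 (0.980). The closest to SLC16A3 were the potassium-chloride cotransporter SLC12A7 (0.976), RAI1 (0.971) and KIAA1462 (0.971), and the closest to BSG were CCND1 (0.951), which encodes cyclin D1, GJB2 (0.946) and RARG (0.941). For SLC16A1 they were TCF7L1 (0.937), WDR12 (0.907) and CARD10 (0.899).

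The other lactate dehydrogenase genes added little. LDHC, LDHAL6A and LDHAL6B had at most 4 counts in any library. LDHD, a mitochondrial D-lactate dehydrogenase, passed the filter in PANC1 only, where it read 1.10 ± 0.621 CPM (SD, n = 3) with vehicle and 2.56 ± 0.379 with lonidamine (log2 change 1.21, SE 0.319, edgeR adjusted p = 0.00145). LDHD had 0 or 1 count in each BXPC3 library.

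Of the wider transporter family and its helpers, 16 genes besides the members, 10 were tested in BXPC3 and 7 in PANC1. In BXPC3 2 rose and 4 fell with SR4, 5 rose and 3 fell with lonidamine, and 4 rose and 6 fell with the combination. In PANC1 0 rose and 4 fell with SR4, 4 rose and 2 fell with lonidamine, and 1 rose and 5 fell with the combination. The medians were 0.03, 0.17 and -0.54 on the log2 scale in BXPC3 and -0.63, 0.53 and -0.94 in PANC1. These counts, and those of the lists that follow, stand against the shares of all genes called. In BXPC3 33.4% of genes were higher and 33.9% lower with SR4, 34.8% and 32.7% with lonidamine, and 39.7% and 39.5% with the combination. In PANC1 35.0% were higher and 36.7% lower with SR4, 35.0% and 34.2% with lonidamine, and 40.1% and 40.9% with the combination. No test of the lists as groups was made. EMB (embigin), a relative of BSG that also chaperones monocarboxylate transporters, fell with the combination in both lines, from 97.4 ± 6.84 to 52.4 ± 1.76 CPM in BXPC3 (log2 change -0.89, SE 0.0601) and from 108 ± 3.80 to 50.0 ± 2.26 in PANC1 (-1.11, SE 0.0518). NPTN (neuroplastin), another relative of BSG, fell by 1.20 on the log2 scale with SR4 in PANC1 (SE 0.0507) and by 0.45 in BXPC3 (SE 0.0427), and lonidamine changed it by no called amount in either line. SLC16A14, an orphan family member, rose with lonidamine from 1.95 ± 0.411 to 15.0 ± 0.696 CPM in BXPC3 and from 3.29 ± 0.513 to 10.5 ± 0.950 in PANC1.

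The enzymes upstream, 15 genes from hexokinase to pyruvate kinase, were all tested in both lines. In BXPC3 11 fell and 3 rose with SR4, 9 fell and 4 rose with lonidamine, and 10 fell and 5 rose with the combination, with medians near -0.40, -0.39 and -0.39 on the log2 scale. In PANC1 6 fell and 6 rose with SR4 (median 0.06), 10 fell and 2 rose with lonidamine (-0.38), and 11 fell and only HK2 rose with the combination (-1.07). LDHA went down with the majority of this list in each treatment except PANC1 SR4. Over all genes 32.7% to 40.9% were called lower in these comparisons. HK2, the inducible hexokinase at the entry of glycolysis, rose in PANC1 by 3.96 (SE 0.0890) with SR4, 2.25 (SE 0.107) with lonidamine and 4.25 (SE 0.0859) with the combination. ENO2, the neuronal enolase, rose by 3.39 (SE 0.114) in the BXPC3 combination and ALDOC, an aldolase, by 2.16 (SE 0.140), while ALDOC fell by 2.35 in the PANC1 combination (SE 0.204). From vehicle to combination in BXPC3, ENO2 went from 5.48 to 57.4 CPM and ALDOC from 3.97 to 17.8. The far more abundant ENO1 and ALDOA went there from 2218 to 1551 and from 973 to 1137. In PANC1 ALDOC went from 22.8 to 4.48 and ALDOA from 1401 to 991. PGAM1, a phosphoglycerate mutase, fell by 1.12 with SR4 in BXPC3 (SE 0.0403) and by 0.87 with lonidamine in PANC1 (SE 0.0389).

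Genes of the other fates of pyruvate were split. Of 18 genes, 16 were tested in BXPC3, where 5 rose and 9 fell with SR4, 3 rose and 8 fell with lonidamine, and 8 rose and 8 fell with the combination. In PANC1 17 were tested, and 7 rose and 8 fell with SR4, 8 and 7 with lonidamine, and 7 and 7 with the combination. The medians were -0.40, -0.12 and 0.02 in BXPC3 and -0.10, -0.04 and 0.03 in PANC1. MPC1, a subunit of the mitochondrial pyruvate carrier that lonidamine is known to inhibit, rose with the combination by 1.42 in BXPC3 (SE 0.130) and by 2.85 in PANC1 (SE 0.0940). GPT2, the mitochondrial alanine aminotransferase, rose by 1.67 (SE 0.0558) with SR4 and 1.96 (SE 0.0550) with lonidamine in BXPC3, and by 1.84 (SE 0.0704) and 1.98 (SE 0.0681) in PANC1. PDK3, a kinase that restrains pyruvate dehydrogenase, fell by 3.52 in the PANC1 combination (SE 0.423).

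Of 10 genes of the shuttles that can reoxidise cytosolic NADH in place of lactate dehydrogenase, 9 were tested in each line. In BXPC3 7 fell and 1 rose with SR4, 7 fell and 1 rose with lonidamine, and 6 fell and 2 rose with the combination. In PANC1 4 fell and 2 rose with SR4, 6 fell and 1 rose with lonidamine, and 6 fell and 2 rose with the combination. The medians were -0.50, -0.42 and -0.98 in BXPC3 and -0.01, -0.22 and -0.19 in PANC1, and the share of all genes called lower was 33.9%, 32.7% and 39.5% in BXPC3 and 36.7%, 34.2% and 40.9% in PANC1. GOT1, the cytosolic aspartate aminotransferase, rose in PANC1 by 1.87 (SE 0.0377), 1.89 (SE 0.0375) and 2.24 (SE 0.0374) with SR4, lonidamine and the combination. GPD2, the mitochondrial glycerol phosphate dehydrogenase, fell in BXPC3 by 1.02 (SE 0.0544), 0.74 (SE 0.0534) and 1.66 (SE 0.0597) with the same treatments.

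Against vehicle, more of the listed hypoxia targets, a list without the members, rose than fell in PANC1, where LDHA and SLC16A3 fell. Of 11 such genes 10 were tested there, and 9 rose and 0 fell with SR4, 6 rose and 0 fell with lonidamine, and 6 rose and 3 fell with the combination (medians 1.89, 0.35 and 0.44). Of all PANC1 genes 35.0%, 35.0% and 40.1% were called higher. The list holds none of the 15 enzymes from hexokinase to pyruvate kinase. Of those, 6 rose and 6 fell in PANC1 with SR4, 2 and 10 with lonidamine, and 1 and 11 with the combination. PGK1, the gene most like LDHA, went in PANC1 from 839 CPM to 742, 645 and 398 with these treatments. GAPDH went from 2680 to 2790, 1947 and 1325. VEGFA, the angiogenic growth factor, rose by 2.62 (SE 0.0621) with SR4 and 1.92 (SE 0.0630) with lonidamine, and LOX, lysyl oxidase, by 3.39 (SE 0.220) with the combination. In BXPC3 9 were tested, and 3 rose and 4 fell with SR4, 3 rose and 2 fell with lonidamine, and 7 rose and 1 fell with the combination (medians -0.24, 0.02 and 0.81), where 33.4%, 34.8% and 39.7% of all genes rose. The treated groups were also compared with each other, in comparisons that share libraries, and the counts of these targets are set beside LDHA and SLC16A3. In PANC1 1 was higher and 9 were lower with the combination than with SR4 (median -1.07, LDHA -1.87), 4 were higher and 5 lower than with lonidamine (median -0.16, LDHA -1.27), and 9 were higher and 0 lower with SR4 than with lonidamine (median 0.74, LDHA 0.60). Against the sum of both single changes 0 were higher and 10 lower in PANC1 (median -1.77, LDHA -0.71). In BXPC3 8 were higher and 1 lower with the combination than with SR4 (median 1.09, LDHA 0.62), 7 and 1 than with lonidamine (median 0.98, LDHA 0.17), and 1 was higher and 5 lower with SR4 than with lonidamine (median -0.31, LDHA -0.46). Against the sum 6 were higher and 3 lower in BXPC3 (median 0.74, LDHA 1.69). In the same order SLC16A3 had -1.10, -1.10, 0.0038 and 0.18 in PANC1 and 0.47, 0.34, -0.12 and 0.17 in BXPC3. The PANC1 value of SLC16A3 for SR4 against lonidamine was not called. Its values against the sum lost their calls without some libraries, as given above. The part of hypoxia-inducible factors in the changes of LDHA and SLC16A3 was not tested. The share of all genes called in either direction in these comparisons was 66.5%, 74.6%, 66.2% and 60.9% in PANC1 and 60.8%, 60.8%, 46.7% and 49.2% in BXPC3, in the order given. Of those called genes 48.1% to 50.6% were higher, depending on the comparison and line, and the rest lower. Of 6 known transcription regulators of these genes, 5 were tested. In BXPC3 3 rose and 1 fell with each treatment. In PANC1 5 rose with SR4, 3 rose and 1 fell with lonidamine, and 5 rose with the combination. EPAS1, which encodes HIF-2 alpha, rose by 1.48 (SE 0.0397) with SR4 in PANC1, and HIF1A fell by 0.68 (SE 0.0341) in the BXPC3 combination.

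Of 7 genes of acid and bicarbonate handling, 5 were tested in both lines. In BXPC3 1 rose and 2 fell with SR4, 2 rose and 3 fell with lonidamine, and 3 rose and 2 fell with the combination. In PANC1 3 rose and 1 fell with SR4, 2 rose and 2 fell with lonidamine, and 2 rose and 3 fell with the combination. The medians were -0.24, -0.18 and 0.29 in BXPC3 and 0.10, -0.53 and -0.30 in PANC1, beside the shares of all genes called given above. CA12, a cell-surface carbonic anhydrase, fell with the combination by 3.41 (SE 0.243) in BXPC3 and by 2.18 (SE 0.474) in PANC1.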

How the data were processed

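The authors deposited raw gene counts, 1 table per line with 25168 genes and 12 libraries each, and every library column was used. The tools listed in the submitters' processing notes are Partek, DESeq2 and STAR 2.7.8a, with the build hg38 (GRCh38) and no roles; which program counted the reads, with what annotation and whether by strand, is not given in the sources used. The deposited gene length in kilobases served only for levels per length. The third SR4 column of BXPC3 does not carry its sample's number and was kept as an unnumbered replicate, written as replicate 3.

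Counts were scaled by TMM and tested with edgeR 4.0.16 (R 4.3.3; filterByExpr, minimum count 10; quasi-likelihood test; Benjamini-Hochberg adjustment at 0.05). A model of 4 groups was fitted per line (12920 and 12514 genes) and one of 8 groups over both lines (13930 genes). SE is the log2 change over the square root of F. Ratios were compared by exact permutation tests. Likeness used log2 CPM with a prior count of 2 and a mean of at least 4. Intervals cover the spread between libraries.

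The members and gene lists were chosen with earlier results of these data known. Of listed genes, only some of those with the largest called changes (up to 2 per list and comparison) are named, with all tested lactate dehydrogenases, EMB and NPTN; some genes that met this rule are not reported here and remain in all counts. Alternatives were DESeq2 size factors, the DESeq2 1.42.0 test, no filter, a fit of only the groups compared, a block for replicate number, leaving out each library and, chosen after seeing the data, total counts without a scaling factor and GENCODE 29 lengths. The scripts were tested on simulated data.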

Additional observations from a re-analysis of the deposited data

Results flagged for a closer look

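In 12 of 15 cases the response of a member to a treatment differed between the lines by the test of the difference itself (edgeR quasi-likelihood test over 24 libraries, adjusted over all genes). Over all genes tested 51.2% were called different between the lines with SR4, 41.8% with lonidamine and 61.9% with the combination. Differences are log2, PANC1 minus BXPC3. With SR4 they were 0.97 for LDHA, 0.43 for LDHB, -0.33 for SLC16A1, -1.45 for SLC16A3 and -0.40 for BSG. With lonidamine they were -0.53 for SLC16A1, -1.54 for SLC16A3 and -0.54 for BSG. With the combination they were -1.57 for LDHA, 0.24 for LDHB, -3.05 for SLC16A3 and -0.75 for BSG. SLC16A3 had opposite called directions in the lines under all 3 treatments, as did BSG under SR4 and SLC16A1 under lonidamine.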

How the results depend on the processing

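The 90 member comparisons gave 1795 results in all under the alternatives. Of these results 1754 kept their direction and their side of the threshold. For 78 comparisons both held under all of their alternatives, and the 12 others were mostly small differences. Against vehicle, every call held under these alternatives, and SLC16A1 with SR4 in BXPC3, not called, gained a call under 2 of them. Counts of called genes stayed between 0.833 and 1.07 times the main count, and the 12 ratio shifts kept their sign when any 1 library was left out. Depth limits little here, as members had at least 686 counts; intervals cover the libraries' spread only. Per-kilobase levels depend on gene length, and reads shared with antisense genes were not separable. For each change below, the cause was not tested.

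Total counts without a scaling factor gave 0.10 for SLC16A1 with SR4 in BXPC3 (now called), -0.0609 for SLC16A3 (no longer called) and 0.13 for BSG (now called) in SR4 against lonidamine in BXPC3, and in PANC1 -0.0173 for LDHB (reversed), -0.15 for SLC16A1 (now called) and -0.0808 for SLC16A3 (reversed). The combination beyond the sum was then 0.13 in BXPC3 and 0.15 in PANC1 for SLC16A3 (neither called), and the line difference of LDHB with lonidamine was 0.16 (called). That scaling moved the share of called genes that were higher in BXPC3 from 49.9% to 39.5% for the combination against SR4 and from 49.3% to 62.8% for SR4 against lonidamine. The DESeq2 test ended the calls of SLC16A3 in SR4 against lonidamine in BXPC3 (-0.12) and of SLC16A1 in the combination against SR4 in PANC1 (-0.13). Without the filter these were -0.11 and -0.12, both not called, BSG in SR4 against lonidamine in BXPC3 was 0.0826 (called), and SLC16A3 in SR4 against lonidamine in PANC1 was -0.0117 (reversed).

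Leaving out each library gave these ranges. SR4 in BXPC3: SLC16A1 0.0541 to 0.0934 and BSG 0.0803 to 0.14. Lonidamine in BXPC3: BSG 0.00853 to 0.0702. SR4 against lonidamine in BXPC3: SLC16A3 -0.14 to -0.0917 and BSG 0.0653 to 0.0867. SR4 against lonidamine in PANC1: LDHB 0.0374 to 0.11, SLC16A1 -0.0924 to -0.0174 and SLC16A3 -0.0337 to 0.0550, which turned negative without SR4 replicate 2 (-0.0337) or lonidamine replicate 1 (-0.00448). Combination against SR4 in PANC1: SLC16A1 -0.19 to -0.10. The combination beyond the sum was 0.13 to 0.19 for SLC16A3 in BXPC3, and in PANC1 it was 0.13 to 0.24 for SLC16A3, -0.20 to -0.0899 for BSG, -0.11 to -0.0136 for LDHB and -0.0116 to 0.0908 for SLC16A1, which turned negative without SR4 replicate 3 (-0.00821) or combination replicate 1 (-0.0116). Uncalled line differences were 0.0152 to 0.15 for SLC16A1 with the combination, and -0.13 to -0.0390 for LDHA and 0.0370 to 0.13 for LDHB with lonidamine.

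Replicate numbers are shared between groups, but same-numbered libraries did not deviate together (correlations -0.0754 to 0.0775 over 15 pairs in BXPC3 and -0.14 to 0.09 over 18 in PANC1). Pairs with different numbers gave -0.0842 to 0.10 in BXPC3 and -0.0854 to 0.11 in PANC1. No effect of the number was seen, but with 3 libraries per group these values cannot show whether same-numbered libraries share an origin. The replicate block moved the counts of called genes to between 0.833 and 0.996 of the main count. With the block, SLC16A3 was -0.13 in SR4 against lonidamine and 0.18 beyond the sum in BXPC3, neither called, and no other member's call changed. The untreated lines could not be compared with the block, whose levels differ by line.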
